A study of Mus musculus with 4 samples.

Results

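Chemokine receptors guide leukocytes along gradients of small secreted proteins. Most are G protein-coupled receptors that turn ligand binding into directed movement, adhesion or retention in a tissue, while the atypical receptor Ackr3 binds and internalises its ligand without the usual G protein signal. In adipose tissue, Ccr2 is best known for bringing monocytes from blood, Cx3cr1 marks patrolling monocytes and some resident macrophages, and Cxcr4 holds cells near stromal sources of Cxcl12. The 7 receptors described here, Ccr1, Ccr2, Ccr7, Cx3cr1, Cxcr4, Cxcr6 and Ackr3, were taken by gene symbol and make up 7 of the 32285 genes measured. All 7 were found.

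Gene expression was measured by single-cell RNA sequencing (10x Genomics 3′ chemistry, which counts unique molecular identifiers, UMIs) in stromal vascular cells of mouse brown adipose tissue (BAT), which are what is left of the tissue once adipocytes are removed. There were 4 libraries, 1 per group. The WT library came from mice labelled 10 weeks old, the 2 db/db libraries from mice of 8 and 16 weeks (8-week and 16-week db/db, or db/db 8w and db/db 16w), and the HFD library from mice labelled 10 weeks old. The label for strain was C57BL6/J throughout. By the study's methods, db/db animals were B6.BKS(D)-Leprdb/J, which carry a mutant leptin receptor in every cell. HFD mice ate a high-fat diet for 10 weeks from 10 weeks of age, which the label does not match, and all groups were male, fasted for 16 h and pooled as 3 mice per library. With 1 library per group, no difference between groups could be tested. Genotype or diet, age and library cannot be told apart, and every interval below is a 95% interval for counting error only.

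After the study's limits on genes, UMIs and mitochondrial share, 5944 WT, 11648 8-week db/db, 5833 16-week db/db and 5462 HFD cells were kept, with median depths of 2733 to 6218.5 UMIs. Cells were assigned to the immune, stromal or endothelial lineage by raw UMIs of 8 marker genes each. This gave 1335, 3941, 2931 and 2043 immune cells, 4216, 5558, 1138 and 1476 stromal cells, and 18, 83, 1373 and 1401 endothelial cells in the order WT, 8-week db/db, 16-week db/db and HFD, which is the order of every run of 4 values below. Any pair of libraries shared 16 to 97 barcodes. Brown adipocyte transcripts were scarce, with Ucp1 between 0.333 and 58.5 CPM (a gene's UMIs per 1000000 UMIs). The 16-week db/db library stood apart in sex-linked transcripts, with 207 CPM of Xist against at most 0.688 in the others and 17.7 CPM of 4 Y-linked genes against 164 to 188, although the methods name male mice only. The part of this in the results was not tested. At or over the limit of 15% mitochondrial UMIs were 68.5% of HFD barcodes, 35.6% of 8-week db/db, 28% of WT and 1.04% of 16-week db/db barcodes. Some of these also failed another limit. Without that limit, 3, 5 and 3 receptors were again at least 2-fold from WT in immune cells of the obese libraries, but in HFD only 2 of the 3 were lower. Lepr had 1 to 25 UMIs per library, too few to check the db/db label.

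The receptors fell into 2 groups by lineage. By CPM summed over the 4 libraries, Ccr1, Ccr2, Ccr7, Cxcr4 and Cxcr6 were highest in immune cells, and Cx3cr1 and Ackr3 in stromal cells. Single libraries departed from this: Cx3cr1 was higher in immune than in stromal cells in 16-week db/db and HFD, and Ackr3 was highest in endothelial cells in 16-week db/db. Of the 7 genes, 4 lie on chromosome 9 (Ccr1, Ccr2, Cxcr6 and Cx3cr1), 2 on chromosome 1 (Cxcr4 and Ackr3) and Ccr7 on chromosome 11 (GRCm38). Upstream sequences were at hand for 6 receptors. They are shown for Ccr1, which was high in macrophages and neutrophils, and for both stromal receptors, 250 bases up to the transcript start, 5′ to 3′ on the strand of the gene, from RefSeq on GRCm38.p6. Capitals mark GAGGAA, the core bound by PU.1, the master transcription factor of myeloid cells, searched on both strands.
Ccr1, chr9:123968693-123968942, minus strand: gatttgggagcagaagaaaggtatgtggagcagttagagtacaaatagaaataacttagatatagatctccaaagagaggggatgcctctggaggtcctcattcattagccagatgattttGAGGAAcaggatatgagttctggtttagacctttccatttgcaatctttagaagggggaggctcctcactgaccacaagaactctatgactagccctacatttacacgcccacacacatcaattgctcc
Cx3cr1, chr9:120068297-120068546, minus strand: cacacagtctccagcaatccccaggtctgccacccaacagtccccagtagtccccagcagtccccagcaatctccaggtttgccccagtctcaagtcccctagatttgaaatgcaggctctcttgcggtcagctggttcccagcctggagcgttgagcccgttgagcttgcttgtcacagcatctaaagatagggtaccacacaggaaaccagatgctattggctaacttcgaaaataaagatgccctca
Ackr3, chr1:90203730-90203979, plus strand: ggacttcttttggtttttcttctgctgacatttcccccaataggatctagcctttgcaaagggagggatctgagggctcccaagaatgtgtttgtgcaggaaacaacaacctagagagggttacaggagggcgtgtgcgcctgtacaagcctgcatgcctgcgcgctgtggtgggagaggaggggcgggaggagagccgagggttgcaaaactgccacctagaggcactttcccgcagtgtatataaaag
The core or its reverse complement TTCCTC stood in 1 of the 6 sequences, that of Ccr1. It stood in 23.3% of all 32851 promoter sequences of this length, so a match is common.

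In immune cells, the receptors were mostly lower than WT in both db/db libraries. In HFD they were divided, with Ccr2 and Cx3cr1 above WT beyond counting error. All 7 passed the minimum of 40 UMIs summed over the libraries. In 16-week db/db, 5 of 7 were at least 2-fold below WT (Ccr1, Ccr2, Ccr7, Cxcr6 and Ackr3), where 28.9% of 13008 genes were. In 8-week db/db, 3 were (Ccr2, Cxcr6 and Ackr3), beside 7.06% of all genes, and in HFD 3 were (Ccr1, Cxcr6 and Ackr3), beside 11.9%. None was at least 2-fold higher in any obese library, where 8.12%, 18.0% and 15.9% of genes were in 8-week db/db, 16-week db/db and HFD. This did not hold under every setting. In HFD thinned to 1000 UMIs, 4 receptors were past 2-fold and only 2 of them lower, with Ccr2 at a log2 ratio of 1.04. With lineages gated on 1 gene each, 4 were past 2-fold in HFD and 3 of them lower. In 16-week db/db thinned to 1000 UMIs, 5 were past 2-fold and 4 of them lower. The median log2 ratio to WT of the 7 receptors was -0.66, -2.47 and -0.05, against -0.01, -0.24 and 0.14 over all genes. The receptors did not share 1 course. Ccr1 was low in both the oldest db/db library and HFD, Ccr2 was low in db/db and not in HFD, Ccr7 was low in 16-week db/db alone, and Cxcr4 stayed within 1.5-fold of WT.

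**Figure D1:**
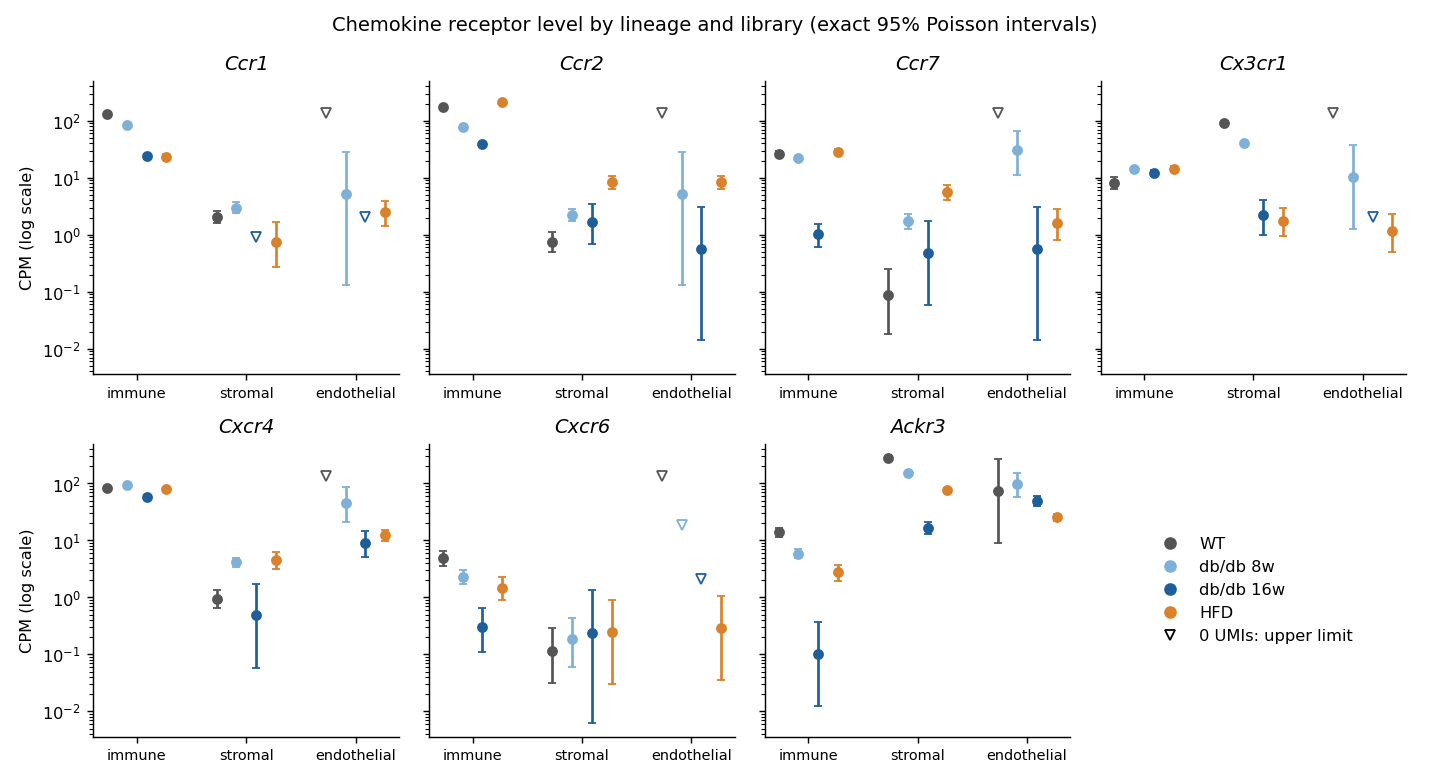
Level of each of the 7 receptors in CPM (log axis) in immune, stromal and endothelial cells of the 4 libraries. Points are library values, bars are exact 95% Poisson intervals for counting error, and open triangles are upper limits where no UMI was found. In WT, Cx3cr1 and Ackr3 lie far higher in stromal than in immune cells, while in 16-week db/db and HFD Cx3cr1 lies higher in immune cells.

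**Figure D2:**
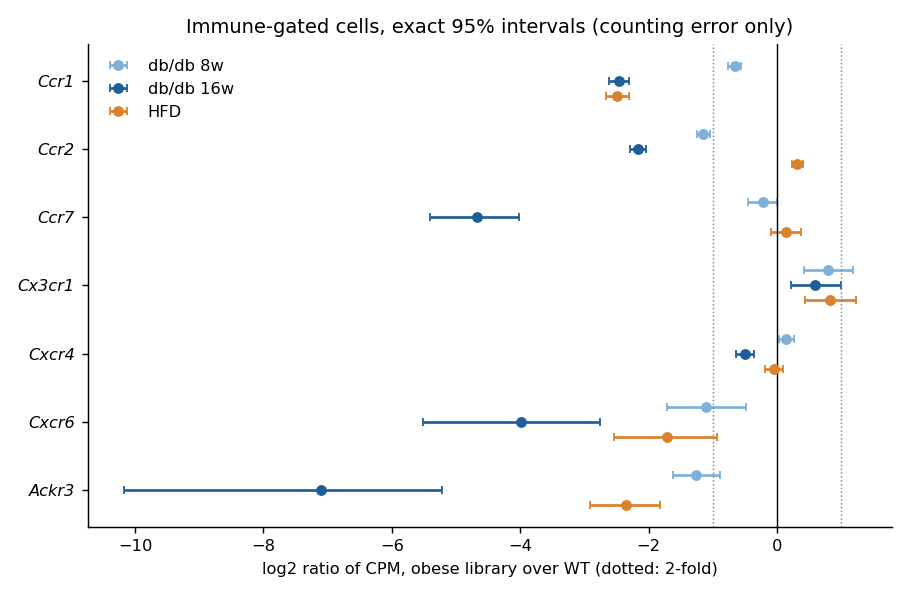
Log2 ratio of each receptor's CPM in immune cells to that of WT for the 3 obese libraries, with exact 95% intervals for counting error and a line at no difference. Cx3cr1 lies above the line in all 3 libraries, and Ccr2 lies below it in both db/db libraries and above it in HFD.

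Ccr1 binds Ccl3, Ccl5 and related ligands and is carried by monocytes, macrophages and neutrophils. Its immune level was 132 CPM in WT (95% interval 124 to 140, 1192 UMIs), 83.4 in 8-week db/db (79.7 to 87.3), 23.9 in 16-week db/db (21.8 to 26.1) and 23.5 in HFD (21.1 to 26.2). WT was the highest, and the intervals of 16-week db/db and HFD overlapped at a level 5.52-fold and 5.60-fold below it. The log2 ratio to WT was -0.66 (-0.77 to -0.55) in 8-week db/db, -2.47 (-2.62 to -2.31) in 16-week db/db and -2.49 (-2.67 to -2.31) in HFD. The order held when each cell was thinned to 1000 UMIs, with a Ccr1 UMI in 12.7%, 8.26%, 2.23% and 2.01% of immune cells (41.9%, 26.6%, 11.2% and 10.9% before thinning).

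Neutrophil-gated cells carried the most Ccr1 where there were any, at 1134 CPM in WT, 657 in 8-week db/db and 210 in 16-week db/db, from 7, 112 and 14 cells. Most Ccr1 UMIs came from macrophages, which made up 1109, 2967, 2427 and 1666 of the immune cells. The makeup of the macrophages differed widely between libraries. Cells gated on Lyve1, Folr2, Cd163, Cbr2 and Timd4, markers of perivascular macrophages, were 83.6% of macrophages in WT, 43.4% in 8-week db/db, 10.8% in 16-week db/db and 2.0% in HFD. Cells gated on Trem2, Cd9, Gpnmb, Spp1 and Lpl, markers of lipid-associated macrophages (LAMs), were 6.9%, 45.7%, 81.4% and 92.3%. In WT, Ccr1 was higher in perivascular macrophages (155 CPM) than in LAMs (75.3 CPM). Within LAMs alone, Ccr1 was 47.8 CPM in 8-week db/db, 23.1 in 16-week db/db and 23.5 in HFD, and within perivascular macrophages it was 137, 44.5 and 0 (34 cells in HFD). If the LAM, perivascular and other macrophages of each library had kept their WT levels, Ccr1 in macrophages would have been 104, 80.6 and 77.1 CPM. The measured levels were 80.1, 24.6 and 23.2 CPM. The WT level of LAMs in this sum rests on 77 cells.

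Ccr2, the receptor for Ccl2 and Ccl7, had the most divided course. In immune cells it stood at 175 CPM in WT (166 to 183, 1579 UMIs), 78.8 in 8-week db/db (75.1 to 82.5), 38.8 in 16-week db/db (36.1 to 41.7) and 217 in HFD (210 to 225). No intervals overlapped. Both db/db libraries were below WT and HFD was above it, with log2 ratios of -1.15 (-1.25 to -1.05), -2.17 (-2.30 to -2.04) and 0.32 (0.23 to 0.40). Thinned to 1000 UMIs, 9.25%, 5.98%, 5.07% and 19.2% of immune cells had a Ccr2 UMI (24.6%, 16.9%, 14.1% and 39.6% before thinning). In stromal cells, which should lack Ccr2, the thinned share was 0.12%, 0.389%, 0.0975% and 0.61%.

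Within the immune lineage, Ccr2 was highest in monocyte-gated cells of WT and HFD, at 833 and 671 CPM, against 329 in 8-week db/db and 191 in 16-week db/db. Natural killer and innate lymphoid cells held 539, 586, 480 and 302 CPM, and dendritic cells 281, 177, 207 and 362. Each of these subsets held at most 69 cells of a library. Macrophages held 49.7%, 66.1%, 63.7% and 75.7% of the immune Ccr2 UMIs, and immune cells of no named subset 38.7%, 22.2%, 22.1% and 16.2%, at 571, 187, 213 and 505 CPM. In macrophages as a whole Ccr2 was 105, 61.1, 26.4 and 186 CPM. The LAMs of WT, only 77 cells, stood far above the perivascular macrophages, with 324 against 55.2 CPM. In 8-week db/db the LAM level was 63.5 CPM, in 16-week db/db 25.4, and in HFD 176. Perivascular macrophages had 47.7, 14.5 and 213 CPM, the last from 34 cells. HFD was thus above WT over all macrophages (log2 ratio 0.83) and below WT within LAMs (-0.88). Had each macrophage subset kept its WT level, Ccr2 in macrophages would have been 239, 311 and 322 CPM in the 3 obese libraries. The measured levels were 61.1, 26.4 and 186 CPM.

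**Figure D3:**
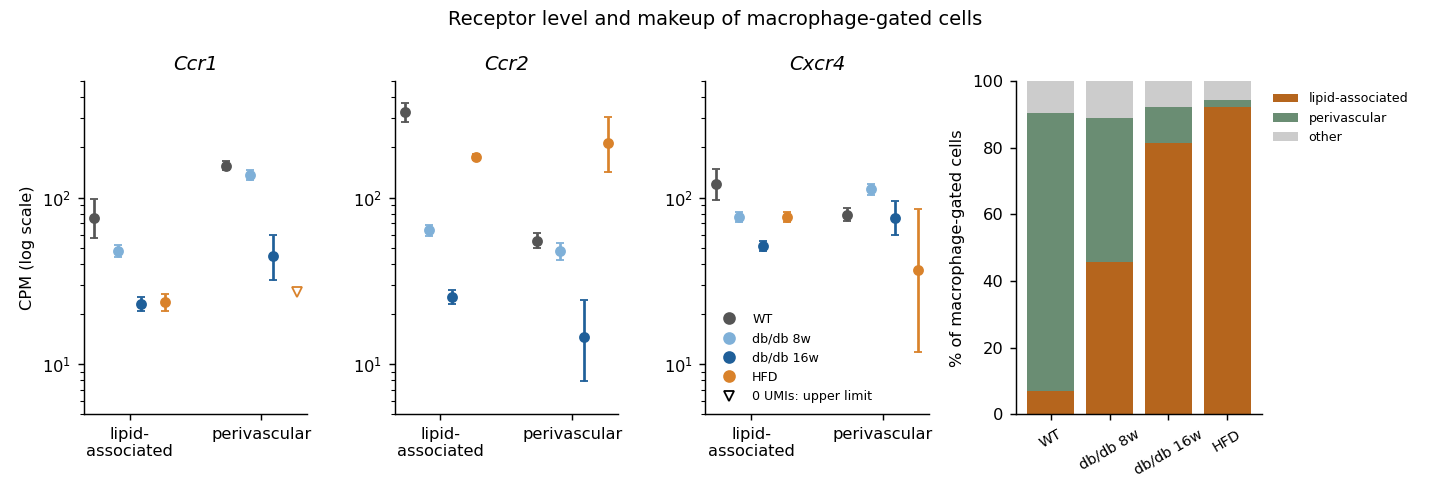
Level of Ccr1, Ccr2 and Cxcr4 (CPM, log axis) in macrophages gated as lipid-associated or perivascular in the 4 libraries, with exact 95% Poisson intervals and triangles for upper limits at 0 UMIs, beside the share of macrophages in each subset (%). The lipid-associated share goes from 6.9% in WT to 92.3% in HFD, and Ccr2 in that subset is 324 CPM in WT and 25.4 CPM in 16-week db/db.

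Ccr7 takes mature dendritic cells and naive T cells towards lymph nodes along Ccl19 and Ccl21. Its immune level was 26.0 CPM in WT (22.8 to 29.5), 22.3 in 8-week db/db (20.4 to 24.3), 1.02 in 16-week db/db from 20 UMIs, and 28.6 in HFD (25.8 to 31.5). Only 16-week db/db stood apart, 25.5-fold below WT (log2 ratio -4.67, -5.41 to -4.01), and the intervals of the log2 ratio in 8-week db/db and HFD included 0. The carriers were few. Cells gated on Fscn1, Ccl22, Cacnb3, Il4i1 and Socs2, markers of mature dendritic cells, numbered 5, 17, 5 and 24, and 4, 15, 3 and 22 of them had a Ccr7 UMI. They held 26.4%, 35.8%, 55% and 63.6% of the immune Ccr7 UMIs, and their Ccr7 level was 1363, 1350, 983 and 2133 CPM. In 16-week db/db the level inside these cells was thus -0.47 on the log2 scale relative to WT, on 11 UMIs from 5 cells. T cells of WT and 8-week db/db had 265 and 237 CPM, and those of 16-week db/db and HFD 19.4 and 21.1, from 1 UMI each. B cells had 135 and 196 CPM in WT and 8-week db/db, on 7 and 43 cells.

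Cx3cr1, the receptor for fractalkine (Cx3cl1), showed opposite courses in the immune and stromal lineages. In immune cells it was 8.07 CPM in WT (6.33 to 10.2, 73 UMIs), 14 in 8-week db/db, 12.2 in 16-week db/db and 14.3 in HFD. All 3 obese libraries were above WT, with log2 ratios of 0.80 (0.43 to 1.19), 0.60 (0.21 to 1.0) and 0.82 (0.43 to 1.23). Monocyte-gated cells were the richest immune source, at 89.3, 95.3, 91.1 and 239 CPM. Thinned to 1000 UMIs, 0.91%, 1.14%, 1.44% and 2.20% of immune cells held a Cx3cr1 UMI.

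In stromal cells, Cx3cr1 was 90.1 CPM in WT (3135 UMIs), 40.2 in 8-week db/db (1075 UMIs), 2.18 in 16-week db/db (9 UMIs) and 1.76 in HFD (14 UMIs). The level was thus higher in WT stroma than in WT immune cells, and the log2 ratio to WT was -1.17 (-1.27 to -1.07), -5.37 (-6.50 to -4.44) and -5.68 (-6.55 to -4.93). Of the Cx3cr1 UMIs of all kept cells, the stroma held 95.1% in WT and 5.5% in HFD. Thinned to 1000 UMIs, 2.96%, 1.58%, 0.195% and 0.0678% of stromal cells had a Cx3cr1 UMI (6.57%, 2.61%, 0.351% and 0.271% before thinning). A high level in stromal cells is unlike what is known of the receptor, so its spread over cells was examined. The UMIs were concentrated. In WT, 277 of 4216 stromal cells had any, with 11.3 UMIs per positive cell and as many as 132 in 1 cell, and the 181 cells with 3 or more held 96.2% of the UMIs. In 8-week db/db, 145 cells were positive, with 7.41 UMIs each and at most 59. In 16-week db/db and HFD, 4 cells each were positive. Positive immune cells held 1.45 to 2.15 UMIs each, with a maximum of 8 to 15.

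In WT, the immune marker list stood at 39.2 CPM in the 181 cells and at 40.7 CPM in stromal cells without a Cx3cr1 UMI, and Pdgfra, a receptor of mesenchymal cells, at 641 and 662 CPM. The stromal gate itself used this list and Pdgfra. It therefore bounded these values, which cannot show whether the cells held immune RNA. The macrophage list was higher in the 181 cells, at 197 (179 to 217) against 149 CPM (144 to 153), and its part in the Cx3cr1 signal was not tested. The 181 cells were deeper, with a median of 11948 UMIs against 6881. Among genes picked after their values were seen, Ccl2 was 1032 against 405 CPM, Il6 141 against 42.3, Ptgs2, a prostaglandin synthase, 770 against 244, and Cxcl10 240 against 72.2 CPM. In 8-week db/db, Ptgs2 was again higher (108 against 68.0 CPM), whereas Ccl2 was 284 against 486, Il6 23.2 against 28.7 and Cxcl10 8.3 against 12 CPM. Hbb-bs, a haemoglobin gene, was 2109 against 355 CPM there.

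The annotation of Cx3cr1 itself is wide. In GENCODE vM21 (GRCm38) the gene spans chr9:119901616-120069879 on the minus strand, 168264 bases, because transcript Cx3cr1-202 reaches from 119901616 to 120068283, and it overlaps 9 other genes, 3 of them on the same strand (Gorasp1, Csrnp1 and Xirp1). Csrnp1, an immediate-early gene, was at 44.0, 42.9, 7.76 and 32.0 CPM in stromal cells. Cx3cr1 was 103 CPM in WT stromal cells with a Csrnp1 UMI and 84.7 CPM in those without, and in 8-week db/db 26.8 and 43.8 CPM. A Cx3cr1 UMI was found in 14.8% of the WT cells with a Csrnp1 UMI and in 4.48% of those without, at median depths of 12351 and 6010 UMIs. Cells without a Csrnp1 UMI may still express it at this depth. Reads by position were not analysed here, so which transcript gave the stromal UMIs was not tested.

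**Figure D4:**
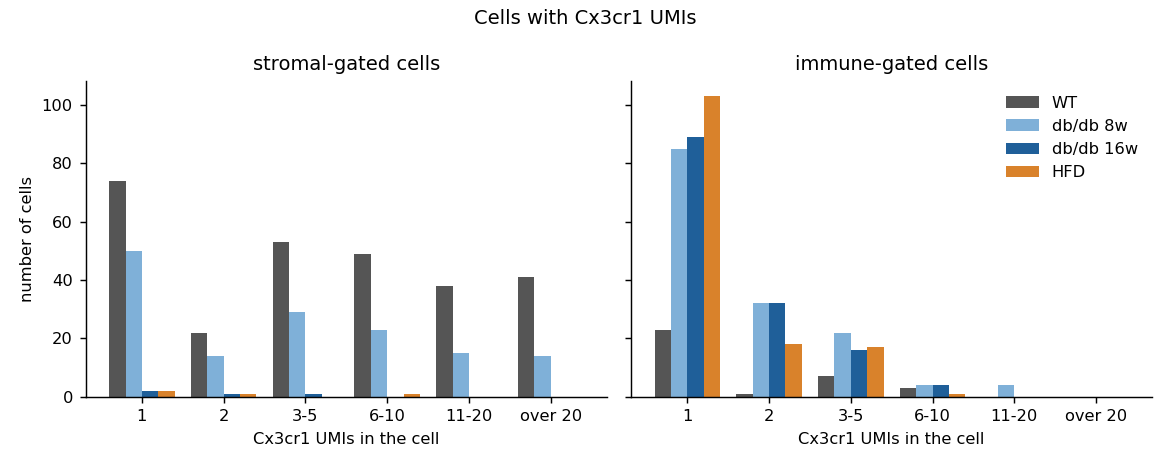
Number of stromal and immune cells by their count of Cx3cr1 UMIs in the 4 libraries, with all counts over 20 drawn together. WT and 8-week db/db stroma hold cells with many UMIs, up to 132 and 59, whereas immune cells end at 8 to 15.

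Among stromal subsets, Cx3cr1 was spread over progenitors (gated on Pi16, Dpp4, Cd55, Sema3c and Anxa3; 100 CPM in WT, 31.0 in 8-week db/db) and committed preadipocytes (gated on Col15a1, Col4a1, Col4a2, Sparcl1 and Icam1; 107 and 46.2 CPM). Fibroblasts gated on Cilp, Eln, Fmo2 and Apod went the other way, with 20.8 CPM in WT (82 cells) and 95.1 in 8-week db/db (289 cells). In committed preadipocytes it was 2.3 CPM in 16-week db/db and 2.0 in HFD. Progenitors of 16-week db/db and HFD had 0 UMIs in 21 and 151 cells. With the WT level kept in each subset, the stroma would have had 87.1, 104 and 100 CPM, against 40.2, 2.18 and 1.76 measured.

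Cxcr4, the receptor for Cxcl12, was the steadiest of the 7. It stood at 83.3 CPM in immune cells of WT (753 UMIs), 92.3 in 8-week db/db, 59.0 in 16-week db/db and 80.7 in HFD. Relative to WT, the log2 ratio was 0.15 (0.03 to 0.27), -0.50 (-0.63 to -0.36) and -0.05 (-0.18 to 0.09). Thinned to 1000 UMIs, 7.73%, 9.59%, 8.10% and 8.18% of immune cells carried a UMI, and on that scale the 16-week db/db ratio was 0.09, no longer below WT. As mean UMIs per cell, the 8-week db/db ratio was -0.10, no longer above WT. Neutrophils (296, 333 and 150 CPM in WT, 8-week db/db and 16-week db/db) and monocytes (248, 143, 201 and 230 CPM) were above macrophages (83.4, 90.5, 54.5 and 76.8 CPM). LAMs had 121, 76.5, 51.0 and 76.6 CPM. Within LAMs all 3 obese libraries were below WT, by log2 ratios of -0.66, -1.25 and -0.66. In perivascular macrophages the values were 79.0, 112, 75.6 and 36.7 CPM. Endothelial cells, known to use Cxcr4 at the tips of growing vessels, had 8.97 CPM in 16-week db/db and 12.4 in HFD, the libraries with over 1000 such cells.

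Cxcr6, the receptor for the membrane-bound Cxcl16, marks tissue-resident T and innate lymphoid cells. It was the least detected, with 44, 51, 6 and 21 UMIs in immune cells, or 4.87, 2.27, 0.305 and 1.48 CPM. The log2 ratio to WT was -1.10 (-1.71 to -0.48), -3.99 (-5.52 to -2.76) and -1.71 (-2.54 to -0.93). Without the mitochondrial limit the HFD ratio turned to 0.27 (-0.24 to 0.81), and thinned to 1000 UMIs it was -0.80 (-2.38 to 0.75) in HFD and -0.53 (-1.78 to 0.82) in 8-week db/db. T cells held 109, 38.9, 38.8 and 232 CPM on 20, 91, 31 and 15 cells, and natural killer and innate lymphoid cells 108, 101, 9.6 and 43.1 CPM. The HFD T cells had the highest level (116 to 416 CPM, overlapping 56.6 to 191 in WT) while the HFD immune lineage as a whole was below WT. Those T cells were 15 of 2043 immune cells in HFD and 20 of 1335 in WT.

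Ackr3, also known as Cxcr7, takes up Cxcl12 and so limits what reaches Cxcr4. In stromal cells it was at 285 CPM in WT (280 to 291, 9917 UMIs), 154 in 8-week db/db (150 to 159), 16.7 in 16-week db/db (13 to 21.2, 69 UMIs) and 76.0 in HFD (70.1 to 82.4). Every obese library was below WT and the intervals did not overlap, with log2 ratios of -0.89 (-0.94 to -0.83), -4.09 (-4.45 to -3.75) and -1.91 (-2.03 to -1.79). Thinned to 1000 UMIs, 20.7%, 13.7%, 1.66% and 7.19% of stromal cells had an Ackr3 UMI (63.8%, 35.1%, 3.95% and 24.5% before thinning). Among the receptors that passed the minimum in stromal cells, 1, 3 and 3 of 6 were at least 2-fold below WT in 8-week db/db, 16-week db/db and HFD, beside 3.76%, 18.2% and 8.92% of all genes. These were Cx3cr1 in all 3, with Ackr3 and the nearly absent Ccr1 added in 16-week db/db and HFD. At least 2-fold higher were 3, 2 and 3, beside 8.56%, 15.1% and 15% of all genes, all of them immune receptors at low level (Ccr2 and Ccr7, with Cxcr4 in 8-week db/db and HFD), and in 16-week db/db on 7 and 2 UMIs.

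Ackr3 differed between stromal subsets, and the shares of those subsets differed between libraries. Progenitors were 70.9% of stromal cells in WT, 26.8% in 8-week db/db, 1.8% in 16-week db/db and 10.2% in HFD, while committed preadipocytes were 11.2%, 42.4%, 89.8% and 78.3%. Within progenitors, Ackr3 was 346 CPM in WT (339 to 354), 343 in 8-week db/db (330 to 357), 572 in 16-week db/db (366 to 850, 21 cells) and 433 in HFD (384 to 486). Inside progenitors no obese library was below WT beyond counting error, with log2 ratios of -0.01, 0.72 and 0.32. Within committed preadipocytes it was 81.5, 57.1, 8.31 and 37.0 CPM, with log2 ratios of -0.51, -3.29 and -1.14. With WT levels kept in each subset, the stroma would have had 176, 89.4 and 114 CPM in the 3 obese libraries, against 154, 16.7 and 76.0 measured. Progenitors supplied 85.6% of stromal Ackr3 UMIs in WT, 59.2% in 8-week db/db, 34.8% in 16-week db/db and 47.7% in HFD.

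**Figure D5:**
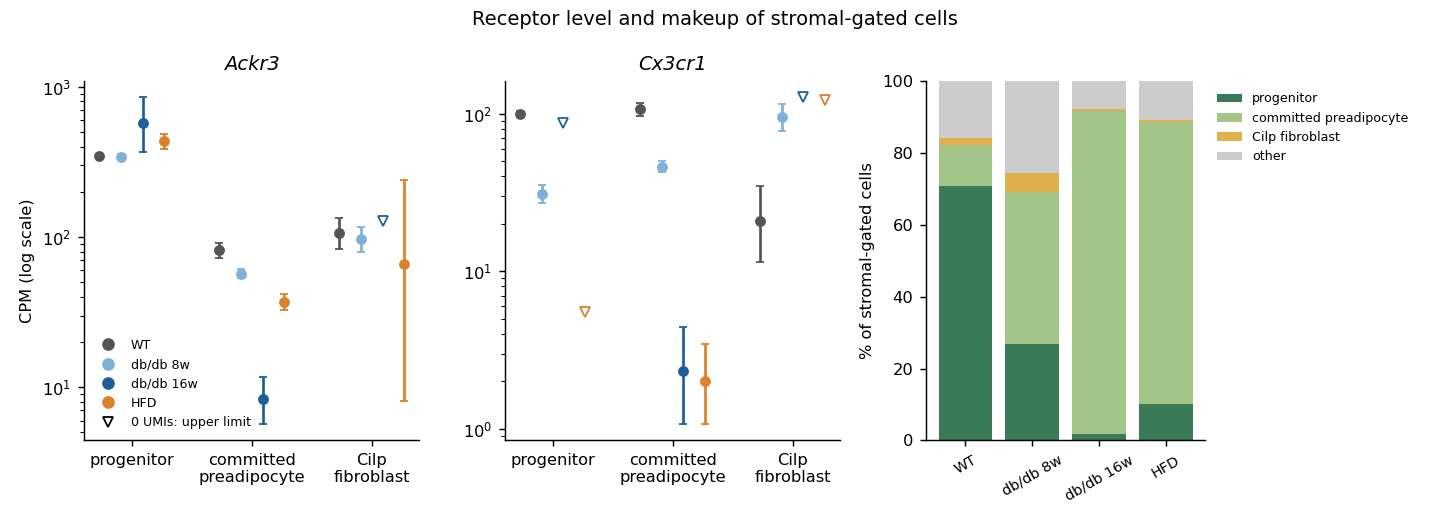
Level of Ackr3 and Cx3cr1 (CPM, log axis) in the 3 gated stromal subsets of the 4 libraries, with exact 95% Poisson intervals and triangles for upper limits at 0 UMIs, beside the share of stromal cells in each subset (%). Ackr3 in progenitors is 343 to 572 CPM in the obese libraries against 346 CPM in WT, while the progenitor share is 70.9% in WT and 1.8% in 16-week db/db.

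Endothelial cells also carried Ackr3, at 49.9 CPM in 16-week db/db (40.1 to 61.4, 89 UMIs) and 25.4 in HFD (174 UMIs). In 16-week db/db this was above the stromal level, and endothelial cells held 46.8% of the Ackr3 UMIs of all kept cells there, stromal cells 36.3%. In HFD the endothelial level was below the stromal one, and WT and 8-week db/db had too few such cells for a level (2 and 19 UMIs). In immune cells Ackr3 was 14, 5.89, 0.10 and 2.76 CPM. The stromal marker list there was 198, 142, 19.1 and 137 CPM, and its part in the immune Ackr3 signal was not tested. The other way round, immune receptors in stromal cells reached at most 8.31 CPM (Ccr2 in HFD), where the immune marker list was 40.7, 128, 53.9 and 277 CPM, and its part in these values was not tested.

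Cells with UMIs of both Ccr2 and Cx3cr1, a pair known from monocytes, were 0.541%, 1.42%, 1.07% and 3.30% of macrophages. Independent draws at the single shares would give 0.309%, 0.533%, 0.490% and 1.82%. Deeper cells hold more UMIs of every gene, and the part of depth in this excess was not tested. Among monocytes, 3 of 16, 8 of 58, 4 of 52 and 22 of 69 had both. Cxcr4 and Ackr3, which share Cxcl12, met in 21, 23, 0 and 10 stromal cells, 41, 37, 1 and 16 immune cells and 0, 3, 1 and 16 endothelial cells. The stromal shares were 0.498%, 0.414%, 0% and 0.678%, where independent draws would give 0.424%, 0.568%, 0.00695% and 0.597%. Immune shares were 3.07%, 0.939%, 0.0341% and 0.783%, against 2.58%, 0.860%, 0.0180% and 0.628%. Endothelial shares were 0%, 3.61%, 0.0728% and 1.14%, against 0%, 1.16%, 0.0637% and 0.561%.

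Of 16 other receptors of the family, 5 exceeded 5 CPM in immune cells of some library. Ccrl2, which presents chemerin without signalling, was 355, 428, 37.4 and 161 CPM, and the chemerin receptor Cmklr1 81.4, 38.0, 18.4 and 21 CPM. Within LAMs Ccrl2 was 1000, 605, 34.9 and 175 CPM, and within perivascular macrophages 192, 159, 20.7 and 36.7 CPM. WT was thus highest in both, unlike over all immune cells. Cmklr1 was 47.0, 22.3, 13.5 and 22.2 CPM in LAMs and 104, 78.4, 90.1 and 80.7 CPM in perivascular macrophages. The WT LAMs were 77 cells and the HFD perivascular macrophages 34. Cxcr3, known from T cells, was 7.52, 2.10, 1.32 and 2.40 CPM. In WT, macrophage-gated cells held 61 of its 68 immune UMIs, and the 20 T cells had 0. The neutrophil receptor Cxcr2 was at most 5.39 CPM and the dendritic cell receptor Xcr1 at most 6.72. Among the 9 that passed the minimum in immune cells, 3, 8 and 6 were at least 2-fold below WT in 8-week db/db, 16-week db/db and HFD, beside 7.06%, 28.9% and 11.9% of all genes. At least 2-fold above WT were 1, 0 and 2, beside 8.12%, 18.0% and 15.9%.

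In the stroma, the atypical receptors Ackr1 and Ackr2, which bind inflammatory chemokines, went the same way as Ackr3. Ackr2 was 136, 75.9, 12.6 and 20.6 CPM, and Ackr1 43.7, 23.1, 2.18 and 9.19 CPM. WT was highest for both and 16-week db/db lowest. Others did not go this way. The atypical receptor Ackr4 was 3.62 CPM in WT (3.02 to 4.31), 7.03 in 8-week db/db (6.06 to 8.11), 0 in 16-week db/db and 2.01 in HFD. Stromal Cmklr1 was 5.41 CPM in WT and 22.5, 17.2 and 21 CPM in the obese libraries, at least 2-fold higher in each over all stromal cells. Committed preadipocytes alone had 14.99, 30.1, 17.7 and 23.3 CPM of Cmklr1. The 16-week db/db interval there (13.7 to 22.4) overlapped that of WT (11.5 to 19.2). Progenitors had 2.61 CPM in WT and 5.90 in 8-week db/db, with 0 and 3 UMIs in 16-week db/db and HFD. Within progenitors, Ackr1 was 52.4, 57.4, 95.3 and 67.7 CPM and Ackr2 162, 174, 95.3 and 93.2 CPM. The 16-week db/db values rest on 4 UMIs each. Inside progenitors Ackr1 was thus not below WT in any obese library, whereas Ackr2 was below WT in HFD beyond counting error (71.5 to 120 against 157 to 167 CPM). In committed preadipocytes every obese library was below WT beyond counting error for both genes. Ackr1 was 14.3, 5.24, 1.30 (5 UMIs) and 2.16 CPM there, and Ackr2 60.9, 32.9, 9.86 and 12.5 CPM.

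Of 12 ligands of the 7 receptors, 11 passed the minimum in immune cells, and 2, 8 and 6 were at least 2-fold below WT in 8-week db/db, 16-week db/db and HFD, beside 7.06%, 28.9% and 11.9% of all genes, with 0, 0 and 1 above, beside 8.12%, 18.0% and 15.9%. In stromal cells the split was otherwise, with 0, 5 and 2 of 11 below WT, beside 3.76%, 18.2% and 8.92% of all genes, and 4, 3 and 5 above, beside 8.56%, 15.1% and 15%. Those above were Ccl5 and Cx3cl1 in each obese library, Ccl9 in 8-week db/db and HFD, Cxcl16 in 16-week db/db and HFD, Ccl12 in 8-week db/db and Ccl19 in HFD. Ccl5, Ccl9, Ccl12 and Cxcl16 were higher in immune than in stromal cells of each library. The part of immune RNA in their stromal values was not tested. The Ccr1 ligand Ccl3 was 523, 266, 104 and 41.6 CPM in immune cells, Ccl6 2906, 1799, 625 and 1369, and Ccl9 1341, 1076, 443 and 858. The Ccr2 ligand Ccl2 was 1353, 1113, 687 and 96.7 CPM and Ccl7 798, 670, 94.9 and 25.7. In HFD both Ccr2 ligands were thus at their lowest in immune cells while Ccr2 was at its highest. Stromal Ccl2 was 461, 493, 140 and 132 CPM. Cxcl12, ligand of Cxcr4 and Ackr3, was 205, 120, 189 and 210 CPM in stromal cells, an order unlike that of stromal Ackr3. Its endothelial level was 356 CPM in 16-week db/db and 1020 in HFD. Cx3cl1 was low in the stroma of WT, at 0.201 CPM, where stromal Cx3cr1 was highest, and 2.17, 14.3 and 9.19 CPM in 8-week db/db, 16-week db/db and HFD. Cxcl16, ligand of Cxcr6, was 149, 146, 58.4 and 89.1 CPM in immune cells.

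Genes whose pattern over 27 library-by-subset profiles was most like each receptor, by Pearson correlation of log2(CPM + 10) over 7490 genes, were named for the top 3. Profiles of 1 library share depth and background RNA, so these values are descriptive. Only subsets of at least 30 cells in a library gave a profile. Mature dendritic cells, the richest in Ccr7, and WT monocytes and neutrophils were therefore left out. The highest Ccr7 profile was that of 8-week db/db T cells, at 237 CPM. Ccr1 went with Cd33 (0.95), Clec4n (0.93) and Osm (0.90), and Ccr2 with Coro2a (0.91), Ubash3b (0.90) and Otulinl (0.90). Cxcr6 went with Icos (0.97), Bcl11b and Il2ra, and Cxcr4 with Gmfg (0.96), Was and Arhgap30. Ackr3 went with Adamtsl3 (0.94), Adamtsl4 and Creb5, and Ccr7 with Grap2 (0.83), Btla and P2ry10. Cx3cr1 had the weakest partners, Arhgef10l (0.67), Plac8 (0.65) and Ace (0.64), the latter pair being markers used to gate monocytes.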

How the data were processed

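The authors made the libraries from BAT stromal vascular cells after sorting and aligned them to mm10. The labels name Cell Ranger 7.1.0 and the header of the deposited matrices 6.0.0, and whether intronic reads were counted is not given in the sources used here. The extraction protocol in the labels describes bulk RNA. The deposited values are raw UMI counts per gene and barcode.

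Cells were kept between 250 and 6000 genes, between 500 and 30000 UMIs and below 15% mitochondrial UMIs, without the study's random draw of cells. No doublet caller was run. A cell took a lineage with at least 3 UMIs of a list and at least 75% of the UMIs of the 3 lists. Those without such a majority, 164 in WT, 1404 in 8-week db/db, 161 in 16-week db/db and 525 in HFD, were set aside as mixed. Subsets needed at least 2 UMIs of a list and 2 parts in 3. No receptor of the 7 was a gate marker. The level is a gene's UMIs summed over gated cells relative to all UMIs of those cells, scaled to 1000000 (CPM), with the 2 gene identifiers of Ccl19 and of Ccl21a each summed. Cxcl11 was not analysed here. Another gene of the fixed lists is not reported here. Genes with 40 or more UMIs over the libraries were counted as past 2-fold or not. Levels have exact Poisson, ratios exact conditional binomial and shares exact Clopper-Pearson 95% intervals, for counting error only. A gene at 0 was set at the floor of 3 counts. Genes named are the 7 receptors, the fixed lists of the family, its ligands, cell markers and library checks, and the 3 genes of most similar pattern. Outside these lists, Il6, Ptgs2, Cxcl10 and Hbb-bs were named for stromal cells with Cx3cr1 UMIs. Csrnp1, Gorasp1 and Xirp1 were named as overlapping Cx3cr1 on the same strand. The members and lists were chosen with earlier results of these data known. Alternatives were no mitochondrial limit, stricter, looser and single-gene gates, UMIs per cell, CPM without mitochondrial genes and thinning. Levels within subsets and without Csrnp1 were added after the data were seen. Scripts were tested on simulated data and used Python 3.11.15, numpy 2.4.6, scipy 1.17.1 and pandas 2.3.3.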

Additional observations from a re-analysis of the deposited data

Results flagged for a closer look

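Ccr2 in immune cells was below WT in both db/db libraries, with log2 ratios of -1.15 at 8 weeks and -2.17 at 16 weeks, and above WT in HFD, with 0.32. It stood out because the obese libraries moved in opposite directions. The difference was not tested, since each group had 1 library.

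Cx3cr1 stood out because its direction differed between lineages of the same library. The immune and stromal log2 ratios to WT were 0.80 and -1.17 in 8-week db/db, 0.60 and -5.37 in 16-week db/db, and 0.82 and -5.68 in HFD. The difference was not tested.

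Cxcr4 in immune cells was above WT in 8-week db/db, with a log2 ratio of 0.15, and below it in 16-week db/db, with -0.50. Neither direction held throughout: as mean UMIs per cell the 8-week ratio was -0.10, and thinned to 1000 UMIs the 16-week ratio was 0.09. This difference between ages was not tested, and age and library cannot be told apart.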

How the results depend on the processing

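The number of receptors at least 2-fold from WT in either direction in immune cells was 3 in 8-week db/db, 5 in 16-week db/db and 3 in HFD, and each stayed within 1.5-fold under the other settings, except that thinning cells to 1000 UMIs gave 1 in 8-week db/db. Of 147 log2 ratios over 7 such settings, 138 kept their direction. Without the mitochondrial limit, Cxcr6 in HFD turned to 0.27, and the cause was not tested. Thinning gave 1.04 for Ccr2 in HFD and -0.94 in 8-week db/db. Limiting Ackr3 to progenitors, chosen after the data were seen, gave 0.72 in 16-week db/db and 0.32 in HFD, and limiting Cx3cr1 to stromal cells without a Csrnp1 UMI gave -0.95 in 8-week db/db. Of 28 shares, 19 at 2000 UMIs lay outside the interval at 1000, as a deeper draw finds more UMIs. No paired analysis was possible because each group had 1 library. Cxcr6 in immune cells and Ccr7 in 16-week db/db rested on 6 to 51 and 20 UMIs, which limits both.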
